A study of Rattus norvegicus with 2 samples.

Results

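Axon guidance ligands and receptors were examined in cultured sympathetic neurons of the rat, which release noradrenaline onto heart and vessels, on 2 Affymetrix Rat Expression Set 230A arrays. The members were all probe sets whose single gene symbol in the platform annotation belongs to the semaphorins of classes 3 to 7, plexins and neuropilins, the ephrins and Eph receptors, the Slits and Robo receptors, the netrins with their receptors and repulsive guidance molecules, or Nogo and its receptors. This gave 49 genes of 10411 with a single symbol, measured by 67 of the 15866 probe sets on the array without controls. The semaphorin-plexin family had 27 probe sets, the ephrin-Eph family 16, the netrin family 11, the Nogo family 8 and the Slit-Robo family 5. The symbol pattern also took in Unc50, Unc5cl and Rtn4ip1, which share letters with guidance genes and are no guidance ligand or receptor, and these were kept and are named where they occur.

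One array held RNA from sympathetic neurons that had been grown together with myocytes, their muscle target, and the other RNA from sympathetic neurons grown without that target. Neurons from dishes with myocytes or other flat cells were washed off with EDTA because they adhere less firmly, so cells that came off with them were in the RNA too. The free-text description is the same for both samples and mentions only neurons grown alone, so titles and source names set the groups. Strain and age are not given in the labels. With 1 array per condition there was no replicate and no test, and every difference below is between 2 arrays and has no replicate check.

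Growth cones read guidance cues through these families. Secreted class 3 semaphorins bind a neuropilin that is paired with a plexin, whereas the membrane-bound classes bind plexins directly, and sympathetic axons are among those that Sema3a repels. Ephrins and Eph receptors both sit in membranes and signal on cell contact. Slits act through Robo receptors, netrins through Dcc, neogenin and the Unc5 receptors, and Nogo (Rtn4), a reticulon best known from myelin, inhibits outgrowth through the Nogo receptor and its partners Ngfr and Lingo1. The question behind the arrays, per the series' design text, was which transcripts accompany the slowing of growth when neurons meet their target.

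The median deposited intensity was 175.0 in neurons from co-culture and 185.7 in neurons alone. A probe set was taken as above the filter when its intensity reached the array's median in at least 1 array. Intensities under 39.6, the pooled 20th percentile, were set to that floor before log2 ratios (co-culture over alone) were formed. All 8 listed markers of sympathetic neurons were above the filter and all were lower in neurons from co-culture, with a median log2 ratio of -0.39. Their summed intensity was 22959 in neurons from co-culture and 28519 in neurons alone. All 9 listed fibroblast markers were higher as deposited, with a median of 0.49 (Col1a1 and Col1a2 turned negative under some scalings) and a summed intensity of 39886 in neurons from co-culture against 33203 in neurons alone. The 5 glial markers on the array summed to 1790 in neurons from co-culture and 1400 in neurons alone, and the 10 cardiac ones, of which 6 were below the filter, to 1601 in neurons from co-culture and 1154 in neurons alone. Among the 5 glial markers, the log2 ratio was 0.99 for S100b, 0.52 for Erbb3, 0.11 for Gfap and 0.09 for Sox10. That of Sox10 turned to -0.01 under scaling to the spiked controls, and Fabp7, below the filter, had 0.04. Of the cardiac markers, the 4 above the filter had a median log2 ratio of 0.33. Among them Nppa, the atrial peptide, had 201 in neurons from co-culture and 178 in neurons alone, and Nppb had 309 in neurons from co-culture and 180 in neurons alone. Tnnt2 had 408 in neurons from co-culture and 293 in neurons alone, whereas Pln had 279 in neurons from co-culture and 284 in neurons alone. Below the filter, the values for Myl2, a myosin light chain of the ventricle, were 134 in neurons from co-culture and 44.8 in neurons alone. Myh6 and Myh7 were also higher there. Myl7 had 31.0 in neurons from co-culture and 40.5 in neurons alone, and Tnni3 and Ryr2 were under the floor in both arrays. The 4 smooth muscle markers summed to 8267 in neurons from co-culture and 10175 in neurons alone, while the 3 endothelial markers were all below the filter. Of the 4 smooth muscle markers 3 were lower, whereas Cnn1 had 423 in neurons from co-culture and 353 in neurons alone. The 5 macrophage markers summed to 1028 in neurons from co-culture and 1133 in neurons alone. Of the 4 macrophage markers above the filter 3 were lower, whereas Cd14 had 475 in neurons from co-culture and 420 in neurons alone. Several guidance genes are also made by fibroblasts, glia and vessel cells, so fewer cells of a type and less RNA per cell cannot be told apart here. The part of these markers in the differences below was not tested.

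Most guidance transcripts were low or little different. Of the 67 probe sets, 25 for 21 genes were above the filter and 42 were below it, so 28 genes had no probe set above it. Of the 25, 4 had passed in 1 array alone, 3 of them in neurons alone (Sema6b, Sema4a and 1 probe set of Efnb1) and 1 in neurons from co-culture (Sema3b). The 3 that passed in neurons alone had to be lower in neurons from co-culture. Of all 8308 probe sets above the filter, 375 had passed in neurons alone only and 375 in neurons from co-culture only. Among the 25, 19 were lower and 6 higher in neurons from co-culture, against 54% lower and 46% higher among all 8308 probe sets above the filter. With both arrays scaled to 1 median, 15 of the 25 were lower (40.3% of all probe sets), and with scaling to the spiked controls 21 (68.4% of all). Their median log2 ratio was -0.15, against -0.02 for all 8308, and it was -0.07 with both arrays scaled to 1 median, where that of all probe sets was 0.06. A 2-fold lower intensity was seen for 2 of the 25, Sema6b and 1 probe set of Efnb1, against 0.818% of all probe sets, and a 2-fold higher one for none, against 0.337%. Over the whole array 28 probe sets were 2-fold higher and 68 lower, or 36 and 53 after quantile normalization. At 1.5-fold, 4 of the 25 were lower (16.0%, against 4.24% of all) and 2 were higher (8.0%, against 1.91%). The lower ones were Sema6b, Sema4f and 1 probe set each of Efnb1 and Plxna3, and the higher ones Plxnd1 and Sema3b. Of these, Sema6b and the Efnb1 probe set passed in neurons alone only, and Sema3b in neurons from co-culture only. The shares at 1.5-fold and 2-fold therefore depend on the filter and were not read as a result about guidance genes. Probe sets that measured 1 gene gave log2 ratios with a single-probe-set SD of 0.28 over 749 genes, from 0.36 in the dimmest of 4 signal groups (157 to 332) to 0.21 in the brightest. This SD covers differences between probe sets, not between cultures.

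**Figure D1:**
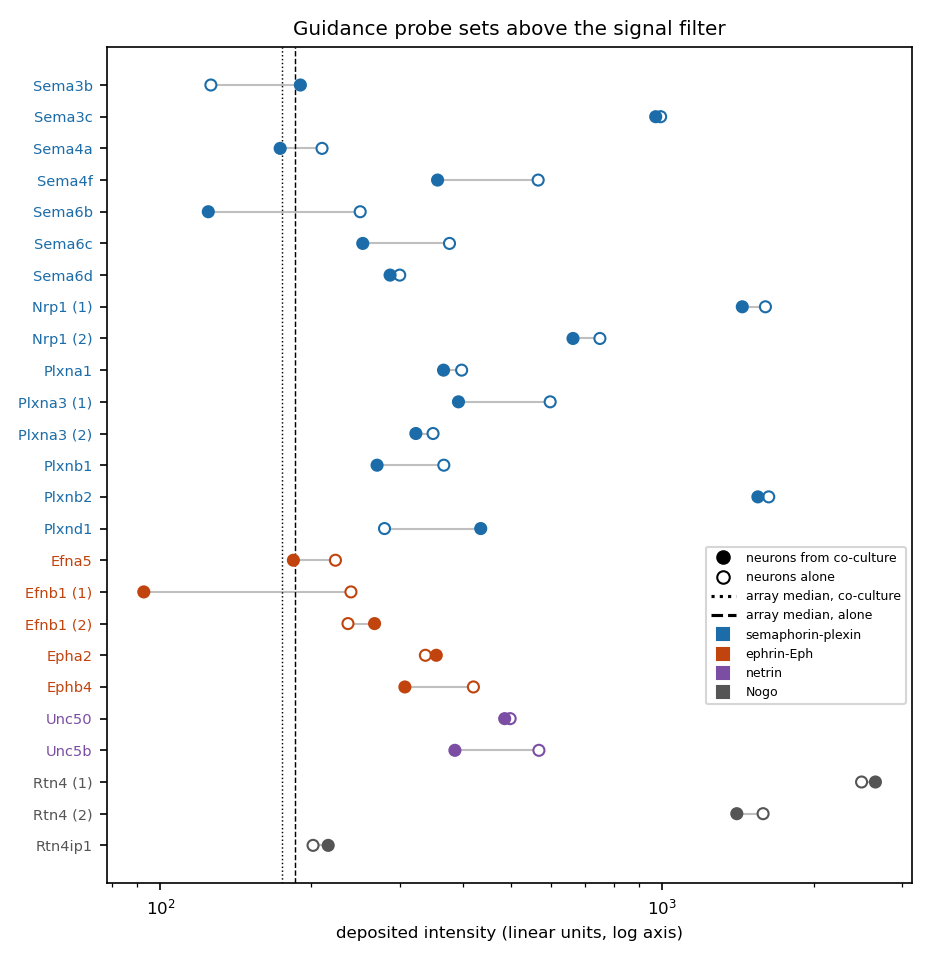
Deposited intensity (linear units on a log axis) of the 25 guidance probe sets above the filter, 1 row each, coloured by family; filled points are neurons from co-culture, open points neurons alone, and the vertical lines are the array medians (175.0 and 185.7). Numbers in brackets separate probe sets of 1 gene; Sema6b and the first Efnb1 probe set have the widest gaps, with the filled point on the left.

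The membrane-bound semaphorins above the filter were Sema6b, Sema4f, Sema6c, Sema4a and Sema6d. Sema6b and Sema4a passed it through neurons alone, which fixed their direction. Sema6b, a transmembrane ligand of plexins, had an intensity of 125 in neurons from co-culture and 250 in neurons alone, 2.01-fold lower (log2 ratio -1.01). It was close to the 2-fold line, and the log2 ratio was -0.91 after quantile normalization and -0.92 with median scaling. Sema4f, a class 4 transmembrane semaphorin, had 357 in neurons from co-culture and 566 in neurons alone, 1.59-fold lower. Sema6c, which is related to Sema6b, had 253 in neurons from co-culture and 377 in neurons alone, 1.49-fold lower, and its other probe set, below the filter, had 23.9 in neurons from co-culture and 42.6 in neurons alone. Sema4a, a class 4 semaphorin also known from immune cells, had 173 in neurons from co-culture and 210 in neurons alone, a log2 ratio of -0.28. Sema6d, known for its part in heart development, had 287 in neurons from co-culture and 300 in neurons alone, and its log2 ratio of -0.06 turned to 0.02 after quantile normalization or median scaling and to 0.00 after lowess.

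Of the secreted semaphorins, Sema3b and Sema3c were above the filter. Sema3b, a class 3 ligand that binds neuropilins, had an intensity of 190 in neurons from co-culture and 126 in neurons alone, 1.51-fold higher, at a signal below the range over which the SD was measured. Sema3c, a class 3 ligand needed for the cardiac outflow tract, had 970 in neurons from co-culture and 992 in neurons alone, a log2 ratio of -0.03 that was 0.05 with median scaling. Sema3a, the classic repellent of sympathetic axons, was at 6.99 in neurons from co-culture and 23.8 in neurons alone, under the floor in both arrays, so no ratio was formed. Below the filter, Sema4b had 125 in neurons from co-culture and 147 in neurons alone, and Sema4d, the ligand of Plxnb1, had 50.2 in neurons from co-culture and 36.2 in neurons alone. Sema6a had 118 in neurons from co-culture and 105 in neurons alone on its brighter probe set. Sema5a, a semaphorin with thrombospondin repeats, had 41.8 in neurons from co-culture and 77.3 in neurons alone on its brighter probe set, close to the floor. These dim values were given no direction.

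Among the receptors of this family, Plxnd1 was 1.5-fold higher and 1 probe set of Plxna3 1.5-fold lower. Nrp1, the neuropilin that binds Sema3a, had intensities of 1443 and 664 on its 2 probe sets in neurons from co-culture and 1604 and 751 in neurons alone. The log2 ratios were -0.15 and -0.18, so both probe sets were lower by nearly the same amount and by less than the SD of a single probe set. Nrp2, which binds Sema3f, was dim, with 12.6 in neurons from co-culture and 47.7 in neurons alone. Plxnd1, a plexin known mainly from blood vessels, had 435 in neurons from co-culture and 280 in neurons alone, 1.55-fold higher, and its log2 ratio of 0.64 lay between 0.54 and 0.72 under every scaling and floor tried. It had the highest log2 ratio of the 25 probe sets.

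Plxna3, a plexin that works with neuropilins, had 392 and 323 on its 2 probe sets in neurons from co-culture and 598 and 349 in neurons alone. Both were lower, by 1.52-fold and 1.08-fold, and the difference between the log2 ratios of the 2 probe sets was 0.49. Plxnb1, the receptor of Sema4d, had 270 in neurons from co-culture and 367 in neurons alone, 1.36-fold lower. Plxna1, the usual partner of Nrp1, had 367 in neurons from co-culture and 398 in neurons alone, and its second probe set, below the filter, had 65.2 in neurons from co-culture and 81.0 in neurons alone. Plxnb2, a plexin of many cell types, had 1549 in neurons from co-culture and 1628 in neurons alone, a log2 ratio of -0.07 that was 0.01 with median scaling. Plxnc1, the receptor of Sema7a, was below the filter with 87.0 in neurons from co-culture and 65.1 in neurons alone, and Plxna2 was under the floor in both arrays. Over the 15 probe sets of the family above the filter, 13 were lower and the median was -0.15. Among all 8308 probe sets above the filter, 54% were lower. The 13 include Sema6b and Sema4a, whose direction the filter fixed, and Plxnb2, Sema3c and Sema6d, which turned positive with median scaling. That scaling gave a family median of -0.07, where the median of all probe sets was 0.06.

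**Figure D2:**
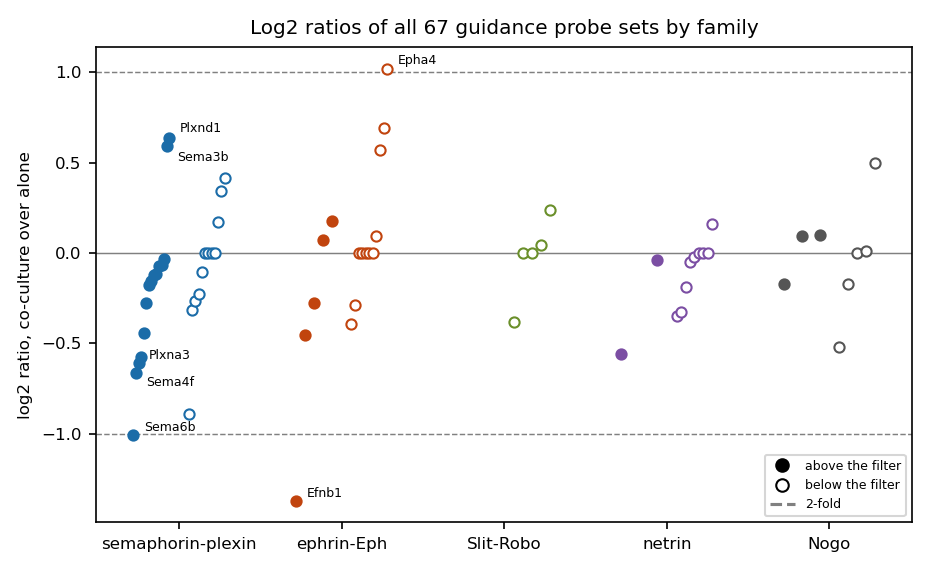
Log2 ratio (co-culture over alone) for all 67 guidance probe sets, by family; filled points are above the filter, open points below it, and dashed lines mark 2-fold. Points at exactly 0 are mostly probe sets under the floor in both arrays; Sema6b and 1 Efnb1 probe set reach the lower line and 1 Epha4 probe set, below the filter, reaches the upper one.

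In the ephrin-Eph family the member with the largest difference was measured in opposite directions by its 2 probe sets. Efnb1, a transmembrane ephrin, had an intensity of 92.7 in neurons from co-culture and 240 in neurons alone on the first, 2.59-fold lower. The other probe set of Efnb1 had 267 in neurons from co-culture and 236 in neurons alone, 1.13-fold higher. The log2 ratios of -1.37 and 0.18 lay 1.55 apart, so the arrays give no direction for this gene. The SD of a single probe set in the dimmest signal group was 0.36, and the SD of a difference between 2 probe sets is larger than that. The other ephrins were Efna5, a ligand held by a lipid anchor, with 184 in neurons from co-culture and 223 in neurons alone, and Efna1, which was under the floor in both arrays on both of its probe sets. The second Efna5 probe set was also under the floor in both arrays.

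Of the Eph receptors, which are receptor tyrosine kinases, those above the filter were Ephb4 and Epha2. Ephb4, the receptor of ephrin-B2 best known from veins, had 307 in neurons from co-culture and 420 in neurons alone, 1.37-fold lower. Epha2, common in epithelial and dividing cells, had 355 in neurons from co-culture and 337 in neurons alone, a log2 ratio of 0.07 that was -0.02 when the arrays were scaled to the spiked controls. Epha4, which binds ephrins of both classes, was below the filter but higher in neurons from co-culture on both probe sets. The first had 87.2 in neurons from co-culture and 43.0 in neurons alone (2.03-fold higher) and the second 64.3 in neurons from co-culture and 39.8 in neurons alone (1.62-fold higher). Its first probe set was the 1 member of the 42 below the filter that reached 2-fold in that direction, against 0.714% of all 7558 probe sets below the filter, and none of the 42 was 2-fold lower, against 1.92%. The values in neurons alone were just above the floor. The first log2 ratio lay between 0.93 and 1.24 under the scalings tried, but with a pseudocount in place of the floor the log2 ratios of Epha4 were 0.62 and 0.39, and with the floor at the 40th percentile both became 0. Epha10, a receptor without kinase activity, had 60.6 in neurons from co-culture and 40.8 in neurons alone. Epha3 had 42.5 in neurons from co-culture and 55.7 in neurons alone. Epha5, Epha7 and Epha8 were under the floor in at least 1 array on every probe set.

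The Slit-Robo family had no probe set above the filter. Slit3, a secreted ligand also made by fibroblasts, came nearest with 143 in neurons from co-culture and 138 in neurons alone. Robo1, a receptor of the Slits, had 91.4 in neurons from co-culture and 119 in neurons alone, 1.30-fold lower. Slit1 had 46.8 in neurons from co-culture and 20.7 in neurons alone, while Slit2 and Robo2 were under the floor in both arrays. No detection call was used, so a low value does not show that a gene was silent.

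Of the netrin family, Unc5b was the receptor above the filter. Unc5b, a netrin-1 receptor that mediates repulsion, had 386 in neurons from co-culture and 568 in neurons alone, 1.47-fold lower, a log2 ratio of -0.56 against an SD of 0.29 for a single probe set at this signal. Its relative Unc5a was dim, with 14.2 in neurons from co-culture and 49.8 in neurons alone. Neo1 (neogenin), the receptor of netrins and repulsive guidance molecules, had 158 in neurons from co-culture and 163 in neurons alone on its brighter probe set. Dcc, the receptor for attraction by netrin-1, had 49.3 in neurons from co-culture and 56.1 in neurons alone. The ligand Ntn1 had 154, 80.5 and 11.7 on its 3 probe sets in neurons from co-culture and 138, 103 and 13.8 in neurons alone, so the 2 above the floor differed in direction. Rgma, a membrane-anchored repellent, was under the floor in both arrays. Among the members that are no guidance ligand or receptor, Unc50, a Golgi protein, had 485 in neurons from co-culture and 497 in neurons alone, and Unc5cl had 153 in neurons from co-culture and 155 in neurons alone.

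The Nogo family differed little. Rtn4, the gene of Nogo, had intensities of 2656 and 1407 on its 2 probe sets in neurons from co-culture and 2493 and 1587 in neurons alone. The log2 ratios were 0.09 and -0.17, of opposite sign and both smaller than the SD of 0.21 of a single probe set in the brightest signal group, and the first turned to -0.00 under scaling to the spiked controls. Both probe sets carry the suffix of probe sets shared by several transcripts, so the Nogo isoforms were not separated. Its receptor Rtn4r was below the filter, with 91.7 in neurons from co-culture and 64.8 in neurons alone on its brightest probe set. Its next probe set had 42.1 in neurons from co-culture and 41.8 in neurons alone, and the third was under the floor in both arrays. Rtn4rl1, a related receptor, had 20.02 in neurons from co-culture and 44.6 in neurons alone. Rtn4ip1, a mitochondrial protein named for binding Nogo, had 216 and 70.5 on its 2 probe sets in neurons from co-culture and 201 and 101 in neurons alone.

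**Figure D3:**
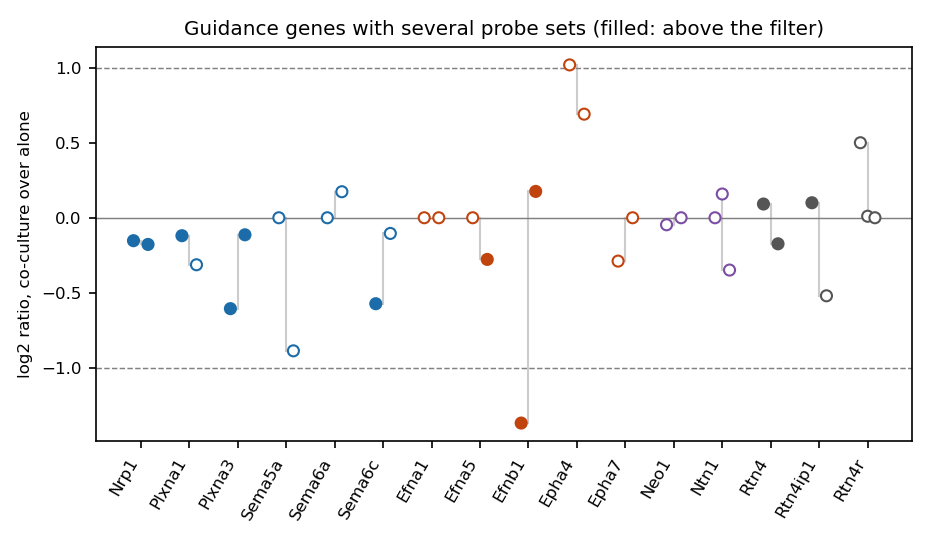
Log2 ratio (co-culture over alone) for each probe set of the 16 guidance genes with several probe sets, coloured by family as in the plot of ratios by family; filled points are above the filter, dashed lines mark 2-fold, and a grey line joins the lowest and highest of a gene. The probe sets of Nrp1 lie together, and those of Efnb1 lie 1.55 apart.

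A check on single probe sets came from the 16 genes with several. Only 4 of the 16 had 2 probe sets above the filter, and those of Nrp1 and Plxna3 were on the same side and those of Efnb1 and Rtn4 on opposite sides. By raw intensity, also under the floor, all probe sets of a gene were on 1 side for 10 of the 16 and not for 6. With the brightest probe set of each gene alone, 1 guidance gene of 21 was 2-fold lower (Sema6b), against 0.628% of all 6368 genes above the filter, and none was 2-fold higher, against 0.314%. Sema6b had passed the filter in neurons alone only, which fixed its direction, so this count is no check.

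By role, the 12 probe sets of ligands above the filter had a median log2 ratio of -0.23, with 9 lower and 3 higher. The 11 probe sets of receptors had a median of -0.15, with 9 lower and 2 higher. Among all 8308 probe sets above the filter, 54% were lower. The 3 probe sets that passed in neurons alone only, and so had to be lower, were all of ligands. Sema3b, which passed in neurons from co-culture only, is a ligand too. No receptor probe set passed in 1 array alone, so the medians of the roles differ in selection and were not compared.

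**Figure D4:**
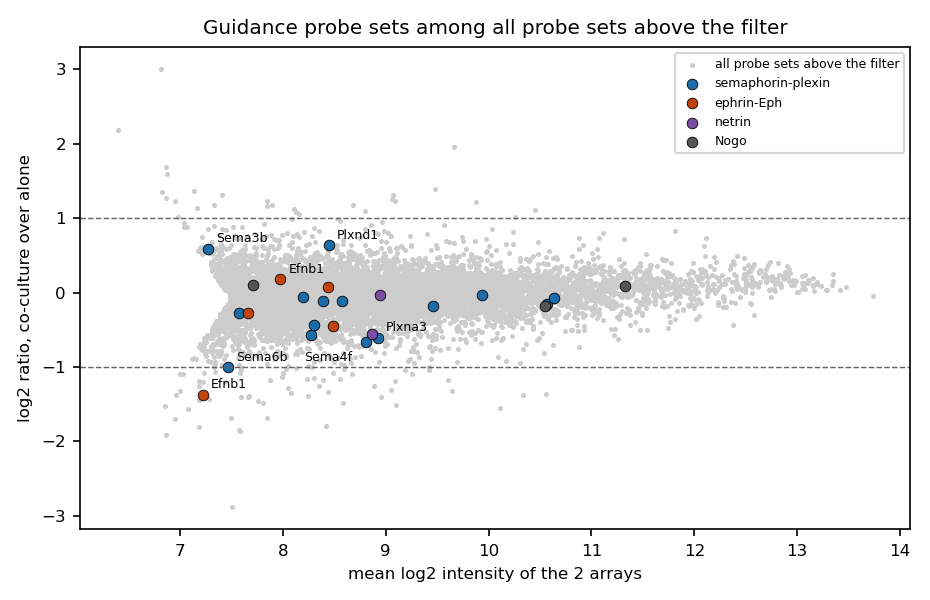
Log2 ratio (co-culture over alone) against the mean log2 intensity of the 2 arrays, for all 8308 probe sets above the filter (grey) and the 25 guidance probe sets (coloured by family). Most guidance probe sets lie within the grey band, with Efnb1 and Sema6b at its lower edge among dim probe sets and Plxnd1 near its upper edge.

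The proteins that carry guidance signals inside the growth cone were described as a separate list of co-receptors and cytoplasmic effectors. Of 57 genes listed, 46 were on the array with a single symbol and 33 were above the filter, of which 22 were lower and 11 higher in neurons from co-culture, against 52.7% lower among all 6368 genes. The median was -0.08, against -0.01 for all genes, and it became 0.01 with median scaling, where 15 were lower and 18 higher. With that scaling 40.3% of all probe sets above the filter were lower, and the median of all of them was 0.06. As deposited, none of the 33 effector genes was 2-fold different, 1 was 1.5-fold lower, against 3.3% of all genes, and none was 1.5-fold higher, against 1.93%. That gene was Dpysl3, a collapsin response mediator that binds microtubules and actin, with 193 in neurons from co-culture and 352 in neurons alone, 1.83-fold lower. Others of its family were Dpysl5, with 712 in neurons from co-culture and 915 in neurons alone, and Crmp1, with 930 in neurons from co-culture and 1139 in neurons alone. Dpysl2, which relays Sema3a signals, had 3884 in neurons from co-culture and 4068 in neurons alone. Its log2 ratio of -0.07 turned to 0.02 with median scaling. Dpysl4, below the filter, had 144.9 in neurons from co-culture and 145.2 in neurons alone. Lingo1, the Nogo co-receptor, had 203 in neurons from co-culture and 288 in neurons alone, 1.42-fold lower, and Cdk5, a kinase of the Sema3a pathway, had 502 in neurons from co-culture and 615 in neurons alone. Trio and Vav2, guanine nucleotide exchange factors, were 1.27-fold higher each, with 267 and 216 in neurons from co-culture and 210 and 170 in neurons alone. Rasa1, a GTPase-activating protein that binds Eph receptors, had 524 in neurons from co-culture and 430 in neurons alone.

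**Figure D5:**
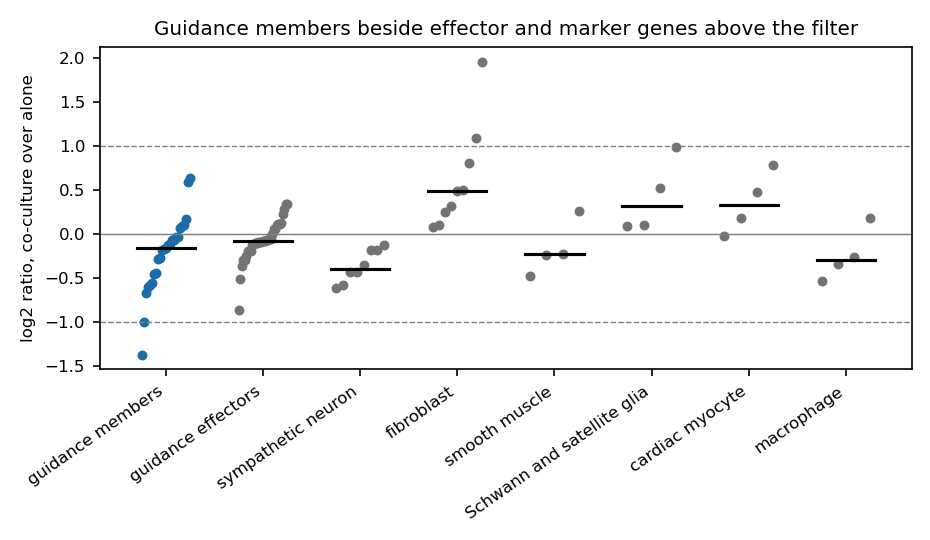
Log2 ratio (co-culture over alone) for the 25 guidance probe sets above the filter (blue) and for the genes above the filter of the effector list and of each cell type marker list (grey, 1 point per gene); short bars are medians and dashed lines mark 2-fold. The guidance median of -0.15 (over probe sets) lies between the medians of the sympathetic neuron markers (-0.39) and the fibroblast markers (0.49), as does that of all genes (-0.01). The medians of the macrophage (-0.30) and smooth muscle (-0.23) markers are also below the guidance median. Those of the effectors (-0.08), glial markers (0.32) and cardiac markers (0.33) are above it.

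The promoters of 3 genes are shown because Sema6b and Efnb1 held the probe sets past 2-fold and Plxnd1 the highest log2 ratio above the filter, although the 2 probe sets of Efnb1 gave no common direction. They are 300 bases around the annotated gene start from RefSeq (GRCr8), written along the gene's strand. Capitals mark E-boxes (CANNTG, the letters that basic helix-loop-helix factors bind) and GC boxes (GGGCGG on either strand, the letters of Sp1). The windows are chr9:1047693-1047992 on the minus strand, chrX:68297279-68297578 on the plus strand and chr4:150715138-150715437 on the minus strand, in the order printed.
Sema6b: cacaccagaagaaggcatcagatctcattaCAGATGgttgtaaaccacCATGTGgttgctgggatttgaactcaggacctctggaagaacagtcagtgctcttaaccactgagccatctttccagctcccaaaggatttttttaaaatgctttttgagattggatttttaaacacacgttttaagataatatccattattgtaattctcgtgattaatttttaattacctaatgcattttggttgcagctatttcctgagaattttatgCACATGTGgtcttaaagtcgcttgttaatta
Efnb1: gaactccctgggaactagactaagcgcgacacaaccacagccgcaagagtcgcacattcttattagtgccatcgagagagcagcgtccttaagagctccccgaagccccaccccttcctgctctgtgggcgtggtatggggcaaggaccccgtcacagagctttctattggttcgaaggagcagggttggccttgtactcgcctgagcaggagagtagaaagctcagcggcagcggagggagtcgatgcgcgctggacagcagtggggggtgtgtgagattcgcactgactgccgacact
Plxnd1: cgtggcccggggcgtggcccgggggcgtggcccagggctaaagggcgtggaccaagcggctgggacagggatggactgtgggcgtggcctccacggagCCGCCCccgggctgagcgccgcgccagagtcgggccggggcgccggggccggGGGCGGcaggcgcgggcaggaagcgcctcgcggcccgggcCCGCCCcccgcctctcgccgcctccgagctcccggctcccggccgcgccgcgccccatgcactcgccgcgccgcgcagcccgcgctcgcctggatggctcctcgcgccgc
The Sema6b window had 4 E-boxes, of which the last 2 overlap, no GC box and 36.3% G and C. The Efnb1 window had neither motif and 59.0% G and C, and that of Plxnd1 had 3 GC boxes, no E-box and 83.0% G and C. Promoters were matched for 38 of the 49 member genes. An E-box was found in 21 of the 38 (55.3%), against 71.6% of all 27457 promoters in the table, and a GC box in 23 of the 38 (60.5%), against 34.9% of all. The median G and C content was 64.2% in the member promoters and 52.3% in all promoters. These matches describe the letters of each window and were not related to the intensities.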

How the data were processed

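The series' design text names dChip 1.3 for the quantification, while MAS5 stands in the submitters' processing notes. Which program made the deposited intensity values, and how they were scaled and corrected for background, is not given in the sources used here. The values are linear, above 0, and have 1 colour; the number of arrays limits their precision.

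Controls (57 probe sets) were left out. The deposited intensities were used as given, set to at least 39.6, and turned to log2. Of 15866 probe sets, 12783 had 1 symbol, 312 several and 2771 none in the platform annotation; no member's symbol changed in RefSeq (GRCr8). A gene in the effector and marker lists took the value of its brightest probe set. Counts of 2-fold differences are descriptions, set beside the share over all probe sets. The calculation was tested on simulated data. Python 3.11.15, numpy 2.4.6, pandas 2.3.3 and statsmodels 0.14.6 were used.

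Named genes were all members above the filter, dimmer ones that were 2-fold different or without a brighter member in the family, and, of the effectors, the 8 with the largest ratios and the 4 brightest. Some of these effectors are not reported here. Further dim members, and Dpysl4 among the effectors, were named after their values were seen. The members and lists were chosen with earlier results of these data known. Other scalings, floors, filters and probe set choices were tried.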

Additional observations from a re-analysis of the deposited data

How the results depend on the processing

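The number of guidance probe sets that were 2-fold lower (2) was 1 after quantile normalization, median scaling, lowess, scaling to the 2% trimmed mean, with a pseudocount in place of the floor and with the brightest probe set of each gene. It was 0 when the 75th percentile was the filter, and 4 at 1.5-fold. The number that were 2-fold higher (0) was 1 when the filter was the 25th percentile or was dropped, which let in Epha4, and 2 at 1.5-fold. Median scaling gave a median log2 ratio of -0.067 for all guidance probe sets and for the semaphorin-plexin family, and 0.0053 for the effector genes. The spiked controls as the scale, an alternative added after the data had been seen, gave -0.25, -0.25 and -0.18 for these. Both scalings multiply all intensities of an array by 1 factor. The median of all 8308 probe sets above the filter was 0.062 with median scaling and -0.12 with the spiked controls, against -0.02 as deposited. For the ephrin-Eph family (-0.28) the median was 0.12 at the 25th percentile filter, 0 without a filter and -0.10 with the brightest probe sets, and for the netrin family (-0.30) it was -0.042 and -0.036 under the same weaker filters and -0.56 without Unc50 and Unc5cl, where Unc5b alone was left. With no filter the median of all 67 guidance probe sets was -0.023. The Nogo median (0.09) turned to -0.04 at the 75th percentile filter and without Rtn4ip1. A move of a median was judged against the SD of a single probe set over the square root of the number of probe sets. Dropping the floor, the floor at the 40th percentile and the updated symbols left the group values as they were, so they are no check of stability. The cause of the changes was not tested, beyond the factor of the median and spiked-control scalings and the probe sets each setting adds or removes. Neither of the 2 probe sets past 2-fold above the filter (Sema6b and 1 of Efnb1) changed sign under the settings tried. Both had passed the filter in neurons alone only, which fixed their direction, so the kept sign is no check of stability. The other probe set of Efnb1 had a log2 ratio of 0.18. The Epha4 probe set past 2-fold below the filter went to 0 with the floor at the 40th percentile and to 0.62 with a pseudocount. The Slit-Robo family had no median, since no probe set passed the filter. No paired analysis was possible because there was 1 array per condition, and leaving out a replicate was not possible for the same reason. No count or depth applies, and for dim probe sets the signal over background limits the ratios.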
